A study of Mus musculus with 4 samples.

Results

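Interferon response in thymic epithelium was followed through 45 genes in bulk RNA sequencing of cells sorted from mice: 33 genes induced mainly by type I interferons, 8 that lean towards induction by interferon gamma, the type II interferon, and the 4 genes of the type I and type II receptors. The genes were taken from the deposited count table by symbol, and all 45 were found among its 54532 gene identifiers. The series holds 4 libraries of C57BL/6 mice, 1 for each combination of genotype and epithelial population. Medullary cells (mTEC, sorted as Ly51− UEA1+) were taken from mice lacking SCD1 (KO) and from their control littermates, which the labels call WT, and cortical cells (cTEC, sorted as Ly51+ UEA1−) were taken from the same 2 genotypes. SCD1 is the desaturase that turns stearic acid into oleic acid. No source used here gives the number of mice behind a library, their age, or which segment of Scd1 was deleted.

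Type I interferons (alpha and beta) bind the receptor formed by IFNAR1 and IFNAR2 and act through a complex that holds STAT2 and IRF9 and binds interferon-stimulated response elements, whereas interferon gamma binds IFNGR1 and IFNGR2 and acts through factors that bind gamma-activated sequences. Lambda interferons use a receptor of their own but the same complex as type I. Thymic epithelium is known for a tonic interferon response in the absence of infection, and medullary cells are known to make interferons themselves. Many of the genes answer to both types, so the classes used here are a leaning and not a proof of which ligand acted.

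The libraries held between 15740383 and 18151725 reads assigned to genes, and 16839 to 19654 genes had at least 10 reads. Each group had 1 library, so no difference below has a replicate check, no p-value is given, and every comparison is of these libraries and not of the conditions. Intervals are exact 95% intervals for counting error only. They treat reads as independent molecules, which reads are not, so they may be too narrow even for that error. Scd1 stood at 15.8 CPM (counts scaled for library depth) in KO mTEC, against 76.9 in WT mTEC, and at 4.16 in KO cTEC, against 21.3 in WT cTEC. All 9 fixed cTEC markers were lower in mTEC than in cTEC and all 9 mTEC markers were higher, in both genotypes, in the direction of the labels. Reads of other cells were present in every library: the 14 thymocyte genes summed to 263 and 217 CPM in KO and WT mTEC and to 394 and 305 CPM in KO and WT cTEC. The 12 myeloid and dendritic cell genes summed to 383 and 341 CPM in KO and WT mTEC, against 137 and 107 CPM in KO and WT cTEC.

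All 45 interferon genes were well above the detection limit in all 4 libraries. The fewest reads of any of them were the 313 of Oas2 in KO cTEC and the most were the 21543 of Irf1 in KO cTEC. On the RPKM scale, on which the scaled counts are also divided by gene length so that levels can be set side by side between genes, Isg15, a ubiquitin-like modifier, had the highest level in every library. Its level was 210 RPKM in both mTEC libraries, 320 RPKM in KO cTEC and 397 RPKM in WT cTEC. Bst2, which tethers budding virions to the cell surface, followed in mTEC with 174 RPKM in KO and 180 RPKM in WT cells, and Irf1, a transcription factor, followed in cTEC with 309 RPKM in KO and 310 RPKM in WT cells. Herc6, a ligase for ISG15, had the lowest level in each library, with 2.90 and 3.09 RPKM in KO and WT mTEC and 4.0 and 3.77 RPKM in KO and WT cTEC. The lowest levels after Herc6 in cTEC were those of Oas2 and Oas3, between 4.01 and 5.32 RPKM there. In bulk libraries such as these, fewer cells that express a gene and less RNA per cell cannot be told apart.

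**Figure D1:**
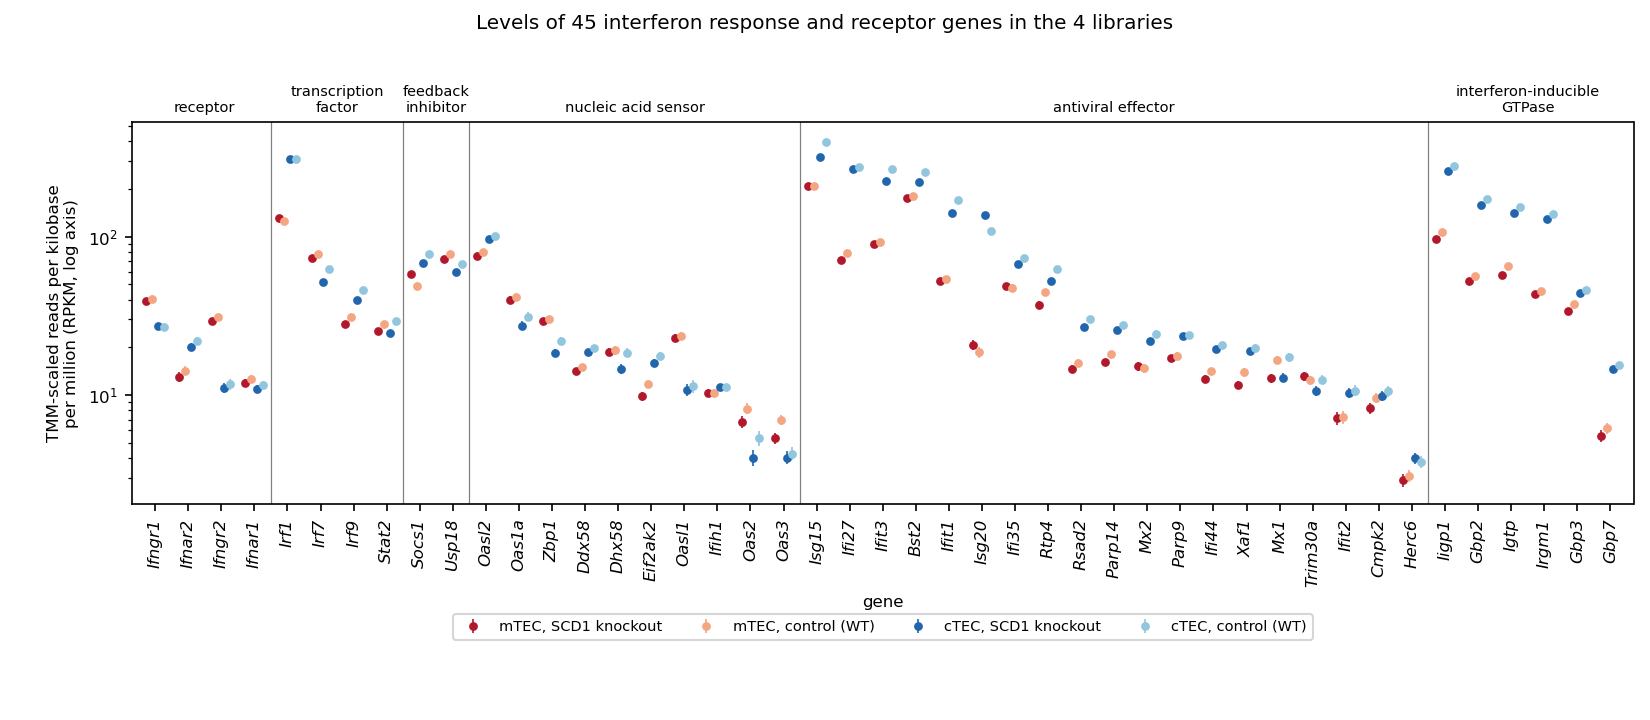
Level of each of the 45 genes in each library, in RPKM (TMM-scaled counts per kilobase of gene length) on a log axis, with genes in blocks by role. Points are single libraries (knockout left of control within each population), and bars are exact 95% Poisson intervals for counting error. Isg15 is highest in every library, and the cTEC points lie above the mTEC points for most effectors and GTPases but below them for Ifngr2 and Oasl1.

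The first question was how the 2 epithelial populations differed in their interferon programme, and the answer held in both genotypes. The genes split in 2 ways. A group led by Isg20, Ifi27, Irf1, Ifit1, Ifit3 and the immunity-related and guanylate-binding GTPases was lower in mTEC than in cTEC. A smaller group made of the gamma receptor genes, Oasl1, the 3 Oas genes and Zbp1 was higher in mTEC. At least 50 reads over the pair were required for a gene to count as measured, and a gene was called higher or lower when its interval excluded a log2 ratio of 0 and its ratio was at least 2-fold or, by a second and smaller rule, a log2 ratio of at least 0.32 in size. By the 2-fold rule, 10 of 45 genes were lower in mTEC in the knockout libraries, where 8.96% of all 15962 measured genes were, and 10 of 45 were lower in the control libraries, where 8.53% of 15747 were. Those 10 genes were the same ones in both genotypes: Isg20, Ifit1, Ifit3, Irf1, Ifi27, Gbp2, Gbp7, Igtp, Irgm1 and Iigp1. Only Oasl1 and Ifngr2 of the 45 were higher in mTEC by the 2-fold rule, in both genotypes, whereas 19.8% of all measured genes were higher in the knockout libraries and 19.0% in the control libraries.

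Ratios below 0 were found for 32 of 45 genes in the knockout libraries, where 54.7% of all measured genes had one, and for 34 of 45 in the control libraries, where 53.5% had one. Among genes with at least 200 reads over the pair, 60.8% and 59.2% of all genes had a ratio below 0. Intervals lay wholly below 0 for 31 genes in the knockout libraries and 30 in the control libraries. Of all measured genes, 41.6% and 39.9% had such intervals. Intervals lay wholly above 0 for 12 and 10 genes, where 34.9% and 34.8% of all measured genes had them. The 45 genes had medians of 3463 reads over the pair in KO and 3328 in WT. All measured genes had 784.5 and 734, so the intervals of the 45 were narrower. By the smaller rule, 28 genes were lower and 9 higher in mTEC in the knockout libraries, where 31.9% of all measured genes were lower and 30.1% higher. In the control libraries 27 were lower and 7 higher, where 31.2% of all measured genes were lower and 29.6% higher. The median log2 ratio of mTEC over cTEC was −0.46 in the knockout and −0.51 in the control libraries, where that of all measured genes was −0.08 and −0.06. By class, the median log2 ratio was −1.35 in KO and −1.31 in WT cells for the 8 genes that lean to type II, and −0.46 and −0.43 for the 33 type I genes. For the 4 receptor genes it was 0.33 in KO and 0.36 in WT cells. The order of the genes along this axis was much the same in both genotypes: across the 45 genes the ratios had a Pearson r of 0.983 and a Spearman rho of 0.958, over pairs of libraries that share no library, and 43 genes lay on the same side of 0 in both. The 45 genes are not independent replicates, since many are known to answer to the same factors.

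**Figure D2:**
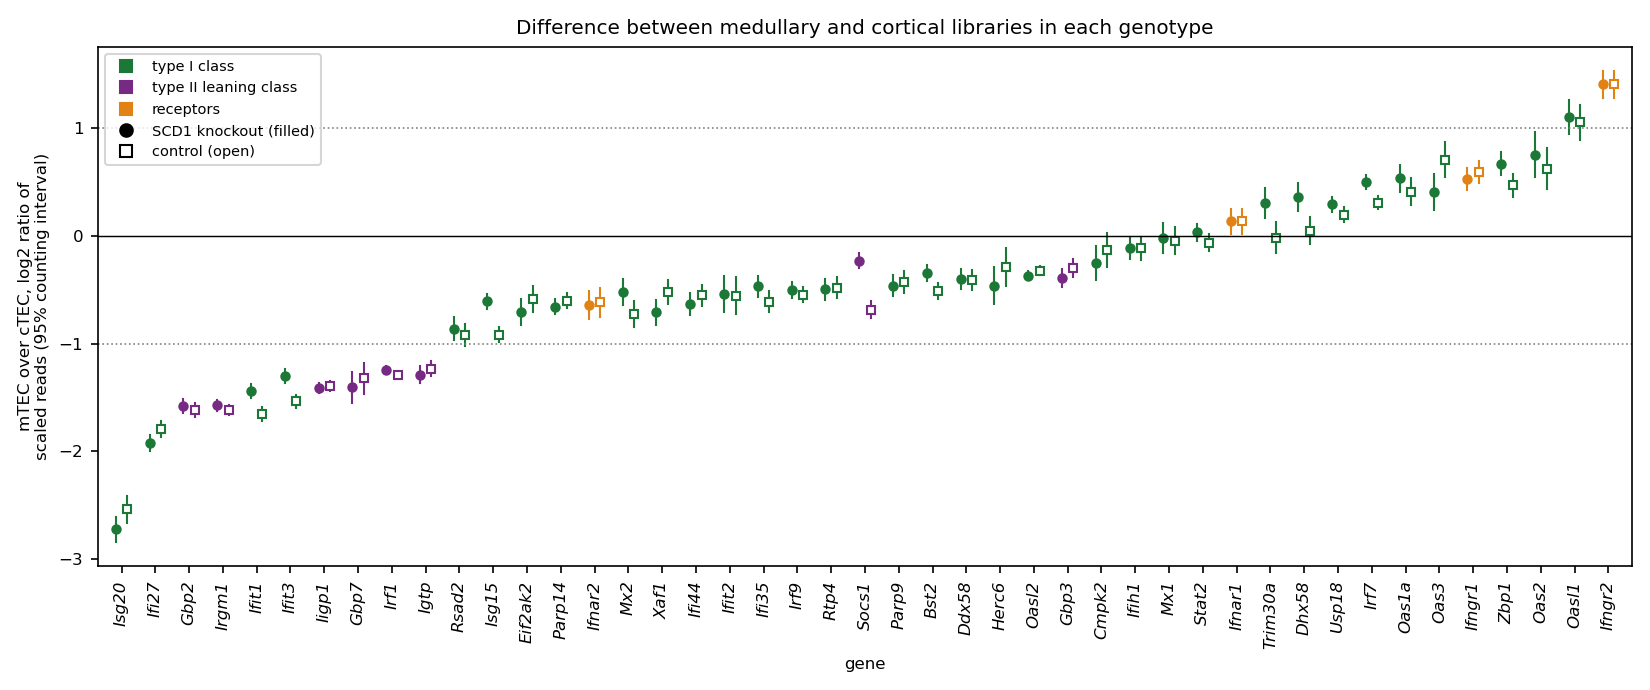
Log2 ratio of scaled reads in mTEC over cTEC for each gene, ordered by the mean of both genotypes, with filled points for knockout and open points for control libraries and bars for exact 95% counting intervals. Isg20 lies lowest, at −2.72 in KO and −2.54 in WT cells, Ifngr2 lies highest, at 1.40 in both, and all 8 genes that lean to type II lie below 0.

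The receptor genes did not behave as a block. Ifngr2, the signalling chain of the gamma receptor, had 1936 and 1983 reads in KO and WT mTEC, against 731 and 673 reads in KO and WT cTEC. It was 2.64-fold higher in mTEC in both genotypes, the largest excess in mTEC among the 45 genes. Ifngr1, the ligand-binding chain, had 1958 and 1972 reads in KO and WT mTEC, against 1356 and 1176 reads in KO and WT cTEC, and its log2 ratio was 0.53 (0.43 to 0.63) in KO and 0.59 (0.48 to 0.69) in WT cells. Both gamma receptor chains were thus higher in the population in which the genes that lean to type II were lower. The type I receptor chains pointed in opposite directions. Ifnar2 had 756 and 810 reads in KO and WT mTEC, against 1177 and 1116 reads in KO and WT cTEC. Its log2 ratios were −0.64 (−0.78 to −0.51) and −0.62 (−0.75 to −0.49). Ifnar1 had 1249 and 1286 reads in KO and WT mTEC, against 1137 and 1053 reads in KO and WT cTEC, a log2 ratio of 0.13 in both genotypes that stayed under the smaller rule. Ifnar2, Ifnar1 and Ifngr2 lie close together on the plus strand of chromosome 16 in mm10. Ifnar2 lies at 91372783 to 91405589, Ifnar1 at 91485238 to 91507441 and Ifngr2 at 91547072 to 91565623. The interferon signalling gene Il10rb, not among the 45, lies between Ifnar2 and Ifnar1, at 91406164 to 91425834. Its log2 ratios were −0.76 in KO and −0.94 in WT cells, below those of Ifnar2. The ratios thus did not rise in order along the locus.

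Among the transcription factors, Irf1, which binds much the same elements as the type I complex and is itself induced by interferon gamma, had the most reads of the 45 genes in both cTEC libraries and in KO mTEC, and came after Oasl2 in WT mTEC. It had 9130 and 8541 reads in KO and WT mTEC, against 21543 and 18810 reads in KO and WT cTEC, and was 2.36-fold lower in mTEC in the knockout and 2.46-fold lower in the control libraries. Irf9, the DNA-binding part of the type I complex, had 2665 and 2872 reads in KO and WT mTEC, against 3774 and 3762 reads in KO and WT cTEC, and log2 ratios of −0.51 (−0.58 to −0.43) and −0.55 (−0.62 to −0.48). Irf7, the factor that amplifies type I interferon production, stood on the other side of 0. It had 4849 and 4989 reads in KO and WT mTEC, against 3433 and 3622 reads in KO and WT cTEC, at log2 ratios of 0.49 (0.43 to 0.56) and 0.30 (0.24 to 0.37). Stat2 had 2629 and 2839 reads in KO and WT mTEC, against 2568 and 2663 reads in KO and WT cTEC, and its interval held 0 in both genotypes, with a sign that depended on the scaling.

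The feedback inhibitors also parted. Socs1, which blocks Janus kinases downstream of the gamma receptor, had 2977 and 2405 reads in KO and WT mTEC, against 3492 and 3469 reads in KO and WT cTEC. Its log2 ratio was −0.23 (−0.30 to −0.16) in KO and −0.69 (−0.76 to −0.61) in WT cells, the widest gap between the genotypes among the 45 genes. Usp18, which removes ISG15 from proteins and blocks signalling at IFNAR2, had 3562 and 3679 reads in KO and WT mTEC, against 2906 and 2882 reads in KO and WT cTEC. Its log2 ratios of 0.29 and 0.20 were both under the smaller rule.

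The nucleic acid sensors lay on both sides, with a median log2 ratio of 0.38 in KO and 0.23 in WT cells. In each genotype 4 of the 10 had a ratio below 0, where 54.7% of all measured genes did in KO and 53.5% in WT cells. Oasl1, a relative of the oligoadenylate synthetases that represses translation of Irf7 in mice, had 1054 and 1049 reads in KO and WT mTEC, against 491 and 454 reads in KO and WT cTEC, 2.14-fold and 2.07-fold higher in mTEC. Oas1a, Oas2 and Oas3, which make the oligoadenylates that activate RNase L, had log2 ratios of 0.53, 0.75 and 0.40 in KO and 0.41, 0.62 and 0.70 in WT cells. Zbp1, a sensor of Z-form nucleic acids, had log2 ratios of 0.67 and 0.47. The family did not move as one, since Oasl2, with 8387 and 8678 reads in KO and WT mTEC, against 10828 and 9760 reads in KO and WT cTEC, had log2 ratios of −0.37 and −0.33. The RNA helicase sensor Ddx58 (RIG-I) and the kinase Eif2ak2 (PKR) were lower in mTEC as well, with log2 ratios of −0.40 and −0.41 for Ddx58 and of −0.71 and −0.59 for Eif2ak2. Dhx58, a regulator of RIG-I, had log2 ratios of 0.36 in KO and 0.05 in WT cells, and Ifih1 (MDA5) had −0.11 and −0.12.

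The antiviral effectors leaned the other way, with a median log2 ratio of −0.54 in KO and −0.56 in WT cells and 16 and 15 of 19 genes lower by the smaller rule, where 31.9% and 31.2% of all measured genes were. Isg20, an exonuclease that degrades single-stranded RNA, showed the largest difference of all 45 genes. It had 676 and 592 reads in KO and WT mTEC, against 4455 and 3083 reads in KO and WT cTEC, 6.60-fold and 5.80-fold lower in mTEC. Ifi27, a small membrane protein gene strongly induced by type I interferon, had 1822 and 1979 reads in KO and WT mTEC, against 6905 and 6141 reads in KO and WT cTEC, 3.80-fold and 3.46-fold lower in mTEC. Ifit1 had 2435 and 2456 reads in KO and WT mTEC, against 6601 and 6921 reads in KO and WT cTEC, and its neighbour Ifit3 had 2767 and 2754 reads, against 6816 and 7169 reads. Ifit1 encodes a protein that recognises foreign RNA ends. Ifit1 and Ifit3 were 2.72-fold and 2.47-fold lower in KO mTEC than in KO cTEC. In WT cells they were 3.14-fold and 2.90-fold lower in mTEC than in cTEC. Ifit2 differed less, with log2 ratios of −0.54 and −0.56. Isg15 was also lower in mTEC, 1.52-fold in KO and 1.89-fold in WT cells. Mx1, the GTPase that blocks influenza virus, was the exception with ratios next to 0, at −0.02 (−0.16 to 0.12) and −0.05 (−0.17 to 0.08), and their sign depended on the scaling. Trim30a had log2 ratios of 0.30 in KO and −0.02 in WT cells, and the sign of the second depended on the scaling. The other 11 effectors lay between −0.92 and −0.13.

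The 6 interferon-inducible GTPases, which attack the vacuoles of intracellular pathogens, were the most uniform block. All 6 were lower in mTEC in both genotypes, with median log2 ratios of −1.41 and −1.36, and summed to 944 and 1026 CPM in KO and WT mTEC, against 2458 and 2660 CPM in KO and WT cTEC. Irgm1 had 4407 and 4487 reads in KO and WT mTEC, against 13096 and 12344 reads in KO and WT cTEC, 2.98-fold and 3.07-fold lower in mTEC. Gbp2 had 2324 and 2404 reads in KO and WT mTEC, against 6933 and 6606 reads in KO and WT cTEC, 2.99-fold and 3.06-fold lower. Iigp1 had 5326 and 5666 reads in KO and WT mTEC, against 14109 and 13329 reads in KO and WT cTEC, 2.65-fold and 2.62-fold lower. Gbp7 and Igtp had log2 ratios between −1.41 and −1.23, and Gbp3 stood apart from them with −0.39 in KO and −0.30 in WT cells, the last under the smaller rule. Markers of other cells differed between the populations too. Myeloid and dendritic markers had median log2 ratios of 1.12 in KO and 1.41 in WT cells, the opposite direction to the GTPases. The thymocyte genes had −0.58 and −0.46 and the immediate early genes, which respond to handling, −0.47 and −0.61, the same direction as the GTPases. Their part in these differences was not tested.

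Interferon genes themselves were sparse, and most of their reads lay in the mTEC libraries. All 21 ligand genes together held 171 and 144 reads in KO and WT mTEC, against 10 and 39 reads in KO and WT cTEC. Most of the mTEC reads belonged to the lambda interferons, which act mainly on epithelial cells. Ifnl2 had 78 and 63 reads in KO and WT mTEC, against 2 and 15 reads in KO and WT cTEC, and Ifnl3 had 48 and 50 reads, against 0 and 7. Their sum was 7.17 and 6.63 CPM in KO and WT mTEC, against 0.114 and 1.44 CPM in KO and WT cTEC, and the log2 ratio of mTEC over cTEC was 5.66 (4.09 to 9.04) in KO and 2.18 (1.54 to 2.93) in WT cells. Ifnl2 and Ifnl3 are near copies, so reads may be split between them and only the sum is firm. The type I gene Ifnb1 had 8 and 12 reads in KO and WT mTEC, against 0 and 3 reads in KO and WT cTEC. Ifng, the type II ligand, had 12 and 12 reads in KO and WT mTEC, against 0 and 7 reads in KO and WT cTEC. The 14 alpha interferon genes together had 19 and 7 reads in KO and WT mTEC, against 2 and 4 reads in KO and WT cTEC. Of these, Ifna5, Ifna13, Ifna14 and Ifnab reached 3 reads in some library, at most 4 each, and Ifnz, a zeta interferon gene, had 2 and 0 reads in KO and WT mTEC and 6 and 2 reads in KO and WT cTEC. A count of 0 in KO cTEC allows up to 0.171 CPM, and no fold is given for Ifng or Ifnb1 from so few reads. Sums of NK cell, plasmacytoid dendritic cell and B cell markers lay on the same side. The thymocyte genes lay on the other side, with median log2 ratios of mTEC over cTEC of −0.58 in KO and −0.46 in WT cells. The 6 NK cell genes summed to 34.2 and 26.9 CPM in KO and WT mTEC, against 8.16 and 6.94 CPM in KO and WT cTEC, but mostly through Tbx21, and the defining genes Ncr1 and Klrb1c had between 0 and 2 reads in every library. The 6 plasmacytoid dendritic cell genes summed to 181 and 161 CPM in KO and WT mTEC, against 94.0 and 90.9 CPM in KO and WT cTEC. Their defining gene Siglech had between 8 and 23 reads per library. Ccr9 of that list was lower in mTEC, with log2 ratios of −0.70 in KO and −0.52 in WT cells. The 5 B cell genes summed to 25.5 and 24.4 CPM in KO and WT mTEC, against 5.25 and 4.58 CPM in KO and WT cTEC. Their part in the ligand reads was not tested. The lambda ligands were thus higher in the population in which the 6 GTPases were lower. Ifnlr1, which encodes the lambda receptor, was lower in mTEC, with log2 ratios of −0.76 in KO and −0.46 in WT cells. The signalling gene Il10rb had −0.76 and −0.94. How these differences relate to one another was not tested.

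**Figure D3:**
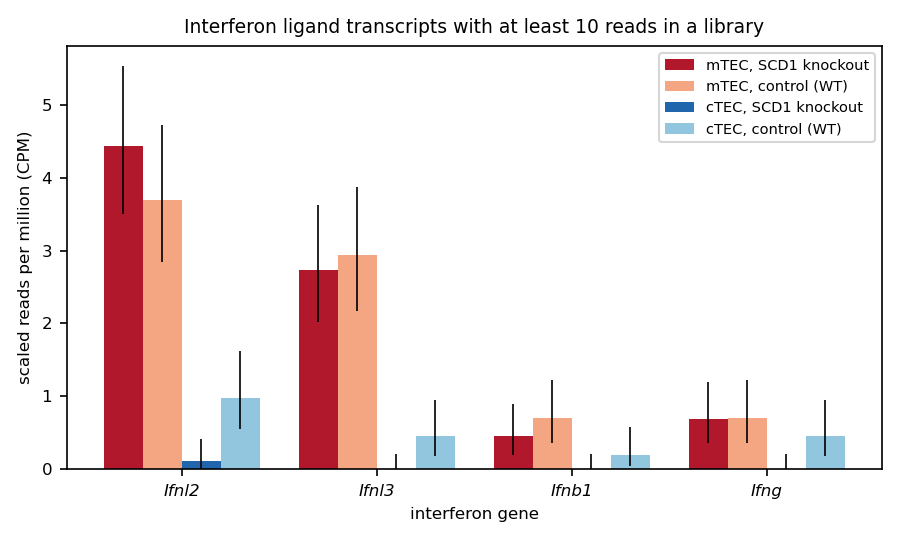
Scaled counts (CPM) of the 4 interferon genes with at least 10 reads in some library, knockout left of control within each population, with exact 95% Poisson intervals for counting error. Ifnl2 and Ifnl3 stand between 2.73 and 4.44 CPM in the mTEC libraries and at or under 0.981 CPM in the cTEC libraries.

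The promoters of genes from both sides are shown because the genes that were lower and those that were higher in mTEC can be compared for the elements that the type I and type II factors bind. The windows run from 250 bases before to 50 bases after the RefSeq start, on GRCm38.p6, in the direction of transcription. Irf1, Irgm1 and Igtp were more than 2-fold lower in mTEC, Oas1a and Oas3 were higher, and Isg15 had the highest level per kilobase. Capitals mark each match to the response element core (GAAA, any 2 bases, GAAA) and to the gamma-activated sequence TTCNNNGAA, in which N is any base.
Irf1, chr11:53769764-53770063, plus strand: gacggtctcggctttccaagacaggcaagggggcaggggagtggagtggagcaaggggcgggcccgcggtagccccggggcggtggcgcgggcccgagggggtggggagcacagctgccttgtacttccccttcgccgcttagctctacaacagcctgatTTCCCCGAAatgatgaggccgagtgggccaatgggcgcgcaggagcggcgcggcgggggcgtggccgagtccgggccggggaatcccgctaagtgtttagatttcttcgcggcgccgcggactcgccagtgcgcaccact
Irgm1, chr11:48871371-48871670, minus strand: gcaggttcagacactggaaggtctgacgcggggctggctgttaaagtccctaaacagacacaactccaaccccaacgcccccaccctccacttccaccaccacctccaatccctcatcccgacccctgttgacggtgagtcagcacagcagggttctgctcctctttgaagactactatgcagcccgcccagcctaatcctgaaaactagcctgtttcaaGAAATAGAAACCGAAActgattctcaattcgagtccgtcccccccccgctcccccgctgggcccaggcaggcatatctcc
Igtp, chr11:58199306-58199605, plus strand: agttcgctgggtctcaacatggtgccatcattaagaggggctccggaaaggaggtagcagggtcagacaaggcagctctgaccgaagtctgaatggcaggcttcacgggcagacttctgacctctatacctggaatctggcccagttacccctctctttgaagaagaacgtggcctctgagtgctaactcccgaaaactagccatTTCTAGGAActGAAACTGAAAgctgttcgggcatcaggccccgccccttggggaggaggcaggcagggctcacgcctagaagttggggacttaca
Oas1a, chr5:120907476-120907775, minus strand: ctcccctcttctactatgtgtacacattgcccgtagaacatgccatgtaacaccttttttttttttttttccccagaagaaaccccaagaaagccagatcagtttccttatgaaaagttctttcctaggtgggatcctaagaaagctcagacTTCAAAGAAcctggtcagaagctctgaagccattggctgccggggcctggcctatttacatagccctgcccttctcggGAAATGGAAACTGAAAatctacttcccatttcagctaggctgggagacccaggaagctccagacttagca
Oas3, chr5:120777610-120777909, minus strand: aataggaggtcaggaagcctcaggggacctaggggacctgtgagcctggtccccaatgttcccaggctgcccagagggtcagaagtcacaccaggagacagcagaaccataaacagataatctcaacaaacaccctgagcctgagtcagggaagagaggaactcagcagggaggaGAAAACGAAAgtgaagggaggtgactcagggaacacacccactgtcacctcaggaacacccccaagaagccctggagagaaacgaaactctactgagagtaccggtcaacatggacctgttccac
Isg15, chr4:156200769-156201068, minus strand: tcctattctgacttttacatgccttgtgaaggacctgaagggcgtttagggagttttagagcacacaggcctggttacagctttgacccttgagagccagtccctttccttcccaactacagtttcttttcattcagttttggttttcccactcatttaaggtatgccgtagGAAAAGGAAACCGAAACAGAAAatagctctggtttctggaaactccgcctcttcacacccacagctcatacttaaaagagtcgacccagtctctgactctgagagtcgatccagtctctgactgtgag

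Both strands were searched, and matches may overlap one another. The Irf1 window held a gamma-activated sequence starting 90 bases before the start site and no response element core. Irgm1 held 2 overlapping cores from 30 bases before the start, and Igtp held a core 34 bases and a gamma-activated sequence 45 bases before it. Oas1a held 2 overlapping cores from 20 bases before the start and a gamma-activated sequence at 98 bases, Oas3 held a core at 75 bases, and Isg15 held 3 overlapping cores from 78 bases. Both sides of the population difference thus had genes with the core. RefSeq windows were matched for 34 of the 45 genes, and 18 of them (52.9%) held the core, against 3.99% of all 27025 genes with a window. The core was in 12 of 23 type I genes, in 6 of 7 that lean to type II and in none of the 4 receptor genes. The gamma-activated sequence was in 11 of the 34 genes (32.4%), against 9.55% of all genes. By class it was in 6 of 23 type I genes, 3 of 7 that lean to type II and 2 of 4 receptor genes. A match is a description of the letters and not of binding.

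The second question was whether the interferon genes differed between SCD1 knockout and control cells. The differences were small in both populations and mostly in one direction. In mTEC, 38 of 45 genes had a ratio of KO over WT below 0, where 48.1% of all 16466 measured genes did, and in cTEC 41 of 45 did, where 47.7% of 14445 did. The median log2 ratio was −0.09 in mTEC and −0.12 in cTEC, and that of all measured genes was 0.01 in both. No gene passed the 2-fold rule in either population, where 0.431% of all measured genes were lower and 0.504% higher in mTEC, and 0.706% lower and 0.492% higher in cTEC. By the smaller rule, a log2 ratio of at least 0.32 in size, 2 of 45 genes were lower and none higher in KO mTEC, where 3.30% of all measured genes were lower and 4.86% higher. In KO cTEC, 3 genes were lower and 1 higher, where 5.75% of all measured genes were lower and 5.41% higher. The counts past that size were thus near the background, and the lean below 0 was made of differences smaller than that. Other gene groups moved with genotype as well. The 8 immediate early genes had median log2 ratios of 0.02 in mTEC and −0.11 in cTEC. In cTEC 6 of 8 intervals lay below 0, where 14.5% of all measured genes had such an interval. The 8 genes summed to 19865 CPM in KO and 19781 CPM in WT mTEC and to 28452 CPM in KO and 30693 CPM in WT cTEC. The thymocyte markers had median log2 ratios of 0.27 in mTEC and 0.38 in cTEC, the myeloid and dendritic markers 0.20 and 0.32, and the cTEC markers 0.29 and 0.33. Their part in the lean of the 45 genes was not tested.

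**Figure D4:**
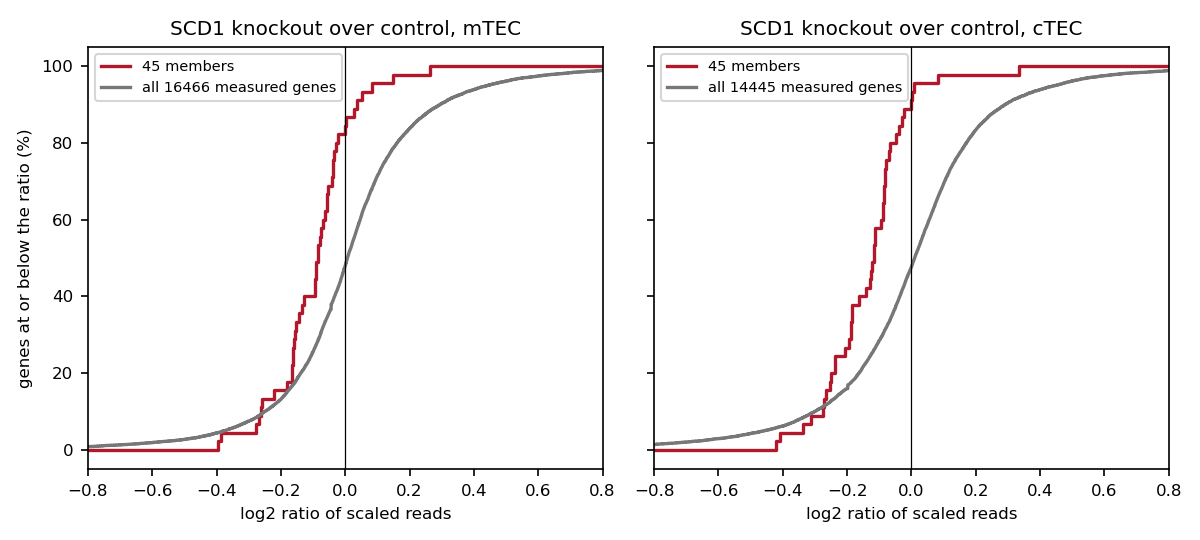
Cumulative share of genes at or below each log2 ratio of knockout over control, for the 45 interferon genes and for all measured genes, in mTEC and in cTEC. The curve of the 45 genes lies to the left of that of all genes, with medians of −0.09 and −0.12 where all genes have 0.01 in both.

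Genes whose counting interval lay wholly below 0 numbered 21 in mTEC, where 10.2% of all measured genes did so, and 28 in cTEC, where 14.5% did. Intervals wholly above 0 were found for 2 genes in mTEC and 1 in cTEC, where 11.6% and 16.3% of all measured genes had one. The 45 genes were more deeply sequenced than most, with a median of 3012 reads over the pair in mTEC and 3992 in cTEC, where all measured genes had 700.5 and 879, so their intervals were narrower. Ratios below 0 in both populations were found for 36 of 45 genes (80.0%), where 3561 of 13953 genes measured in both (25.5%) had them. Of those 36, 27 were of the type I class, 6 lean to type II and 3 were receptor genes. The sizes of the ratios in the 2 populations were only weakly related across the 45 genes, with a Pearson r of 0.27 and a Spearman rho of 0.06. By class the median log2 ratios were −0.09 in mTEC and −0.16 in cTEC for type I, −0.11 in both for the genes that lean to type II, and −0.08 in both for the receptors.

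Mx1 was the gene furthest below 0 and the only one past the smaller rule in both populations. It stood at 48.2 CPM in KO mTEC, against 63.3 CPM in WT mTEC, a log2 ratio of −0.39 (−0.53 to −0.26) from 846 and 1079 reads. In cTEC it stood at 48.8 CPM in KO, against 65.4 CPM in WT cells, a log2 ratio of −0.42 (−0.56 to −0.29) from 855 and 999 reads. Its neighbour on chromosome 16, Mx2, did not follow it, with log2 ratios of 0.04 (−0.09 to 0.17) in mTEC and −0.16 (−0.27 to −0.05) in cTEC. Mx1 of C57BL/6 mice is known to carry a deletion and to make no working protein, so its transcript is read here as a marker of the response and not as an antiviral activity.

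The oligoadenylate synthetase genes Oas2 and Oas3 passed the rule in 1 population each. Oas3 stood at 37.7 CPM in KO mTEC, against 49.3 CPM in WT mTEC, a log2 ratio of −0.39 (−0.53 to −0.24) from 663 and 840 reads. In cTEC it stood at 28.5 CPM in KO and 30.2 CPM in WT cells, a log2 ratio of −0.08 (−0.27 to 0.10) from 500 and 462 reads. Oas2 showed −0.28 (−0.45 to −0.11) in mTEC, from 528 KO and 621 WT reads, and −0.41 (−0.63 to −0.19) in cTEC, from 313 KO and 362 WT reads. The 2 genes lie side by side on chromosome 5, on the minus strand, and their intervals overlap between the populations. Dhx58 was past it in cTEC alone, where it stood at 47.9 CPM in KO, against 60.5 CPM in WT cells, a log2 ratio of −0.34 (−0.48 to −0.20) from 839 and 925 reads. In mTEC it stood at 61.3 CPM in KO and 62.5 CPM in WT cells, from 1077 and 1066 reads, with a log2 ratio of −0.03 (−0.15 to 0.09).

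Isg20 was the 1 gene past the smaller rule in the other direction. It stood at 254 CPM in KO cTEC, against 202 CPM in WT cTEC, a log2 ratio of 0.33 (0.27 to 0.40). In mTEC it stood at 38.5 CPM in KO and 34.7 CPM in WT cells, a log2 ratio of 0.15 (−0.01 to 0.31). Isg20 was thus both the gene with the largest excess in cTEC and the one with the highest ratio of KO over WT there. The 9 cTEC markers also had ratios above 0 in KO cTEC, all 9 of them, with a median log2 ratio of 0.33, and in KO mTEC, all 9 of them, with a median of 0.29. Of the 12 measured thymocyte markers, 11 were above 0 in KO mTEC and 12 in KO cTEC. Of all measured genes, 48.1% lay below 0 in KO mTEC and 47.7% in KO cTEC. The part of the cTEC and thymocyte markers in the ratio of Isg20 was not tested.

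**Figure D5:**
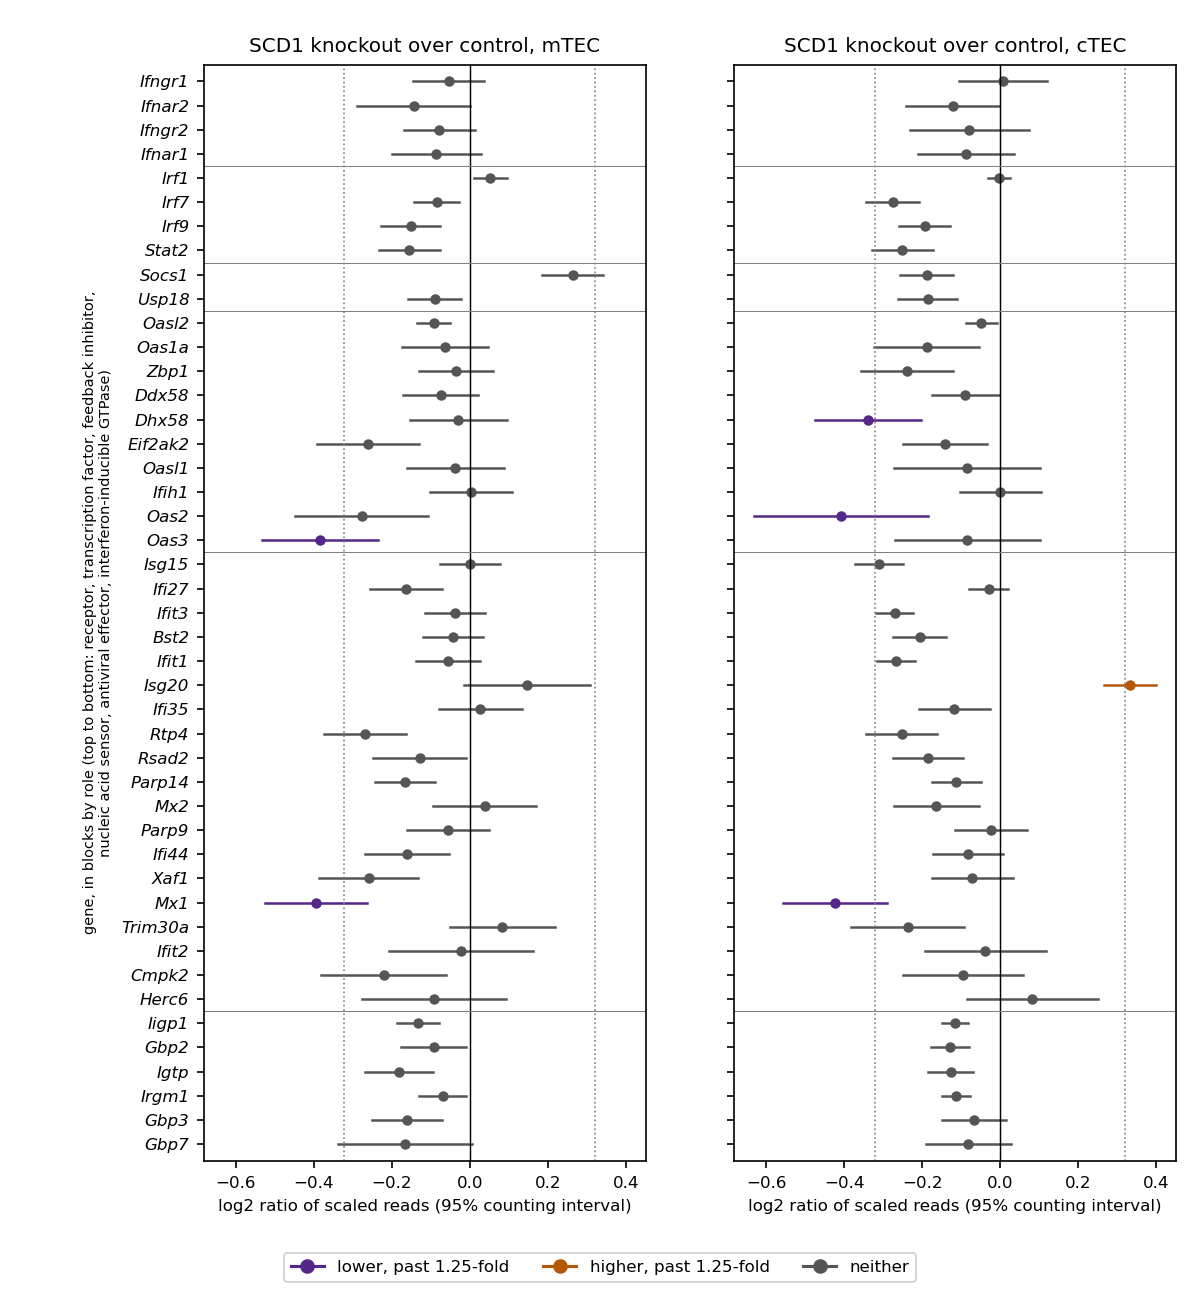
Log2 ratio of scaled reads in SCD1 knockout over control for each gene in mTEC (left) and cTEC (right), with exact 95% counting intervals, dotted lines at log2 ratios of 0.32 in size and colours for genes past the smaller rule. Mx1 and Oas3 are past it in mTEC, and Mx1, Oas2, Dhx58 and Isg20 in cTEC.

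The receptor and signalling genes differed little between genotypes. All 4 receptor genes had log2 ratios between −0.14 and 0.01, and the sign of Ifngr1 in cTEC depended on the scaling. Irf1 stood at 520 CPM in KO mTEC and 501 CPM in WT mTEC, a log2 ratio of 0.05 (0.01 to 0.09). In cTEC its interval reached from −0.03 to 0.03, around a ratio whose sign depended on the scaling. The type I factors lay lower. Irf7 stood at 276 CPM in KO and 293 CPM in WT mTEC, and at 196 CPM in KO and 237 CPM in WT cTEC, for log2 ratios of −0.09 (−0.14 to −0.03) and −0.28 (−0.34 to −0.21). Stat2 stood at 150 CPM in KO and 167 CPM in WT mTEC, and at 146 CPM in KO and 174 CPM in WT cTEC, with log2 ratios of −0.15 and −0.25. Irf9 had log2 ratios of −0.15 in mTEC and −0.19 in cTEC, and Usp18 had −0.09 and −0.19. These values were all under the smaller rule.

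Socs1 was the 1 gene whose intervals excluded 0 in opposite directions. It stood at 169 CPM in KO mTEC, against 141 CPM in WT mTEC, a log2 ratio of 0.26 (0.19 to 0.34). In cTEC it stood at 199 CPM in KO, against 227 CPM in WT cells, a log2 ratio of −0.19 (−0.26 to −0.12). Neither reached the smaller rule. Isg15, Ifit1 and Ifit3, set side by side after their values were seen, had ratios next to 0 in mTEC and below 0 in cTEC. Ifit2 did not share this, with log2 ratios of −0.02 in mTEC and −0.04 in cTEC, while Bst2 had −0.04 and −0.21 and Zbp1 had −0.04 and −0.24. Isg15 stood at 159 CPM in both mTEC libraries, with a sign that depended on the scaling, and at 242 CPM in KO, against 300 CPM in WT cTEC, a log2 ratio of −0.31 (−0.37 to −0.25). Ifit1 stood at 139 CPM in KO and 144 CPM in WT mTEC, and at 377 CPM in KO, against 453 CPM in WT cTEC, for log2 ratios of −0.06 (−0.14 to 0.03) and −0.27 (−0.31 to −0.22). Ifit3 had −0.04 and −0.27, but shares 50% of its 50-base windows with Ifit3b, so reads may be split between them. Summed with that copy it had −0.02 in mTEC and −0.26 in cTEC. Oas1a shares 54.1% of its windows with Oas1g in the same way, and the sum of both had log2 ratios of 0.00 in mTEC and −0.22 in cTEC.

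All 6 GTPases were below 0 between genotypes in both populations, where 48.1% of all measured genes were in mTEC and 47.7% in cTEC. The GTPases leaned below 0 by like amounts, with medians of −0.15 in mTEC and −0.11 in cTEC. Their log2 ratios ran between −0.18 and −0.07 in mTEC and between −0.13 and −0.07 in cTEC, so that none approached the smaller rule. Among the effectors and sensors not yet named for genotype, Rtp4, a chaperone of taste and opioid receptors, was below 0 by the same amount in both, with log2 ratios of −0.27 in mTEC and −0.25 in cTEC. Xaf1 and Eif2ak2 had −0.26 and −0.26 in mTEC and −0.07 and −0.14 in cTEC. Ifih1 stood at 84.6 CPM in KO and 84.4 CPM in WT mTEC, and at 91.6 CPM in KO and 91.5 CPM in WT cTEC, with a sign that depended on the scaling. It had the smallest ratio in size of the 45 genes in cTEC, and Isg15 had it in mTEC.

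Interferon transcripts were also compared between genotypes. In mTEC the 21 ligand genes summed to 9.73 CPM in KO and 8.45 CPM in WT cells, a log2 ratio of 0.20 (−0.12 to 0.53). In cTEC they summed to 0.570 CPM in KO, against 2.55 CPM in WT cells, a log2 ratio of −2.11 (−3.33 to −1.13) from 10 and 39 reads. The lambda interferons gave 2 of the KO reads and 22 of the WT reads in cTEC. These are few reads from 1 library each. Of the 9 mTEC markers, 8 were also below 0 in KO cTEC, where 47.7% of all measured genes were. The mTEC markers had a median log2 ratio of −0.22 and summed to 2705 CPM in KO and 3057 CPM in WT cTEC. Their part in the ligand difference was not tested.

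Other genes of the pathway, none of them among the 45, were taken from lists written with earlier results of these data known. The 66 other interferon-stimulated genes were compared in the same way. Their median log2 ratio of KO over WT was −0.04 in mTEC, with 40 of 62 measured genes below 0 where 48.1% of all measured genes were, and −0.07 in cTEC, with 41 of 59 below 0 where 47.7% of all were. By the smaller rule Ifi213, Oas1b and Ifit1bl1 were lower and Gbp2b higher in KO mTEC, and Helz2, Slfn2 and Ifi213 were lower and none higher in KO cTEC. Ifi213, a member of the AIM2-like receptor family, was thus past it in both, at 7.40 CPM in KO, against 11.1 CPM in WT mTEC, and 3.42 CPM in KO, against 4.91 CPM in WT cTEC. Helz2, a helicase that acts as a nuclear receptor coactivator, stood at 99.3 CPM in KO, against 131 CPM in WT cTEC, a log2 ratio of −0.40 (−0.49 to −0.30). These counts stood beside 3.30% lower and 4.86% higher of all measured genes in mTEC and 5.75% lower and 5.41% higher in cTEC. Between populations 29 of 62 were lower and 17 higher in mTEC in the knockout libraries, where 31.9% of all measured genes were lower and 30.1% higher. In the control libraries 30 of 60 were lower and 12 higher, where 31.2% of all were lower and 29.6% higher. Ifi211, another gene of the AIM2-like receptor family, stood at 95.9 and 93.4 CPM in KO and WT mTEC, against 34.1 and 33.5 CPM in KO and WT cTEC, with log2 ratios of 1.49 and 1.48. Gbp4, a GTPase like Gbp2, stood at 106 and 101 CPM in KO and WT mTEC, against 42.7 and 41.7 CPM in KO and WT cTEC, with log2 ratios of 1.31 and 1.27. Slfn5 of the Schlafen family stood at 76.3 and 90.5 CPM in KO and WT mTEC, against 198 and 221 CPM in KO and WT cTEC, with log2 ratios of −1.38 and −1.29.

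Of the 16 signalling genes, only Ifnlr1, which encodes the lambda receptor, was past the smaller rule between genotypes, and only in mTEC. It stood at 16.3 CPM in KO mTEC, against 20.9 CPM in WT mTEC, a log2 ratio of −0.36 (−0.59 to −0.13). Between populations, Nlrc5, the regulator of MHC class I genes, stood at 119 and 126 CPM in KO and WT mTEC, against 72.2 and 69.0 CPM in KO and WT cTEC, with log2 ratios of 0.72 and 0.86. Of the 12 genes that induce interferon, Tmem173, which encodes STING, stood at 144 and 140 CPM in KO and WT mTEC, against 38.3 and 40.4 CPM in KO and WT cTEC, with log2 ratios of 1.91 and 1.79. Tlr9, the endosomal sensor of unmethylated DNA, had 189 and 185 reads in KO and WT mTEC, against 19 and 3 reads in KO and WT cTEC. Myd88, the adaptor of most Toll-like receptors, stood at 53.1 and 49.3 CPM in KO and WT mTEC, against 124 and 118 CPM in KO and WT cTEC, and was past the 2-fold rule in both genotypes. Between genotypes none of the 11 genes measured in mTEC or the 10 measured in cTEC was past the smaller rule.

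The chemokines and Cd274, classical targets of interferon gamma, lay on both sides, with 3 of 5 higher and 1 of 5 lower in mTEC by the 2-fold rule in both genotypes. Among all measured genes, the share past that rule in KO cells was 19.8% on the higher side and 8.96% on the lower. For WT cells the shares were 19.0% and 8.53%. The median log2 ratio of the 5 genes was 1.24 in each genotype, unlike the medians below 0 of the 45 genes. The difference between the lists was not tested. Cxcl9 stood at 173 and 180 CPM in KO and WT mTEC, against 26.4 and 38.9 CPM in KO and WT cTEC, with log2 ratios of 2.71 and 2.21. Cd274, which encodes PD-L1, stood at 308 and 301 CPM in KO and WT mTEC, against 787 and 765 CPM in KO and WT cTEC, with log2 ratios of −1.35 and −1.35. Cxcl11 and Ccl5 were past the 2-fold rule in the direction of Cxcl9 in both genotypes. Markers of other cells differed between the populations too, and their part in these differences was not tested. Cxcl10 differed less between populations, with log2 ratios of −0.23 in KO and −0.39 in WT cells. Between genotypes, Cxcl9 in cTEC was the 1 gene of the 5 past the smaller rule, with a log2 ratio of −0.56 (−0.74 to −0.38) in KO over WT, and in mTEC it had −0.05 (−0.13 to 0.02). Cd274 had 0.03 in mTEC and 0.04 in cTEC.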

How the data were processed

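Each of the 4 libraries, 1 per genotype and population, was prepared from sorted epithelial cells with the NEBNext Ultra RNA kit, per the labels. The table that the authors deposited holds unscaled counts of reads for every gene, with a gene length in bases that served here for RPKM. The submitters' processing notes name CASAVA, HISAT2 2.0.5, featureCounts 1.5.0-p3 and the build mm10. Annotation release, strand setting and handling of multi-mapping reads were not given in the sources used here, so reads of genes with copies may be split or lost.

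Library totals ran from 15740383 to 18151725 reads. All genes were scaled together by the trimmed mean of M-values (edgeR 4.0.16, R 4.3.3), which gave factors of 0.966 for KO cTEC, 0.971 for WT cTEC and 1.03 for each mTEC library. Log2 ratios used a prior count of 0.5 reads and exact conditional binomial (Clopper-Pearson) 95% intervals, and levels used exact Poisson 95% intervals. With 1 library per group no test was made. Genes with at least 50 reads over a pair were measured, and both size rules were applied to all of them. Tables and figures were made in Python 3.11.15 (pandas 2.3.3, numpy 2.4.6, scipy 1.17.1, matplotlib 3.10.9).

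The 45 genes, their classes and all lists were chosen with earlier results of these data known. Values in each library are printed for the receptors, transcription factors, feedback inhibitors and genes past a size rule (up to 6 per direction between populations), and the others by ranges. Of the other lists, up to 4 genes per comparison are named, those whose interval lies farthest from 0, and ligands with at least 3 reads. Mx2, Ifit2, Oasl2, Ddx58, Eif2ak2, Ifih1, Rtp4, Xaf1, Trim30a, Gbp3, Gbp7, Igtp, Gbp4, Cxcl10, Il10rb and Ccr9 were named after their values were seen. The ratios of Ifnlr1 between populations were also added after they were seen. Of 67 other interferon-stimulated genes listed, 66 were matched. Copies were sought as 50-base windows of GENCODE M21 transcripts. Of the 45 genes, 2 shared at least 25% of their windows with genes elsewhere, and some genes of the other lists did so too. Promoter windows come from RefSeq on GRCm38.p6. Alternatives covered scaling, the read minimum, the prior count, listed gene families and genes with copies.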

Additional observations from a re-analysis of the deposited data

Results flagged for a closer look

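Socs1, which encodes a feedback inhibitor of Janus kinase signalling, had log2 ratios of KO over WT of opposite sign in the populations, 0.26 (0.19 to 0.34) in mTEC and −0.19 (−0.26 to −0.12) in cTEC. Each ratio rests on 1 library per genotype, and the difference between the populations was not tested.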

How the results depend on the processing

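The overall medians of the 45 genes and the counts past each size rule were recomputed under 9 alternatives. These held 3 other scalings, scaling on protein-coding genes, no read minimum, a minimum of 200 reads and a prior count of 2 reads. Another left out listed members of gene families. The last, chosen after seeing the data, left out the 2 genes that have near-identical copies. The median difference of the genotype ratio between populations was recomputed under 2 of them, and counts of intervals, class medians and the count below 0 in both populations under none. Of 110 such values 106 stayed near their first value, and no median changed direction, which a count cannot do. Of 1568 single-gene values 1529 stayed near their first value, with none in the opposite direction once past its rule. Part of this agreement was fixed in advance. The settings of the read minimum removed none of the 45 genes, and leaving genes out did not alter the ratios of those kept. Only the scalings and the prior count could move a single-gene ratio. With library totals only, the median log2 ratio of mTEC over cTEC in WT was −0.42 instead of −0.51. Without the listed family members, 34 genes were counted, and 1 gene instead of 2 was past the smaller rule in KO mTEC. Between populations 7 instead of 12 were past the 2-fold rule in KO cells and 7 instead of 12 in WT cells. The genes left out held Mx1 and, of the 12, Ifit3, Gbp2, Gbp7, Iigp1 and Oasl1, so these counts rest partly on those families. They were left out by family and not by measured sharing of sequence. Ifit3 shared 50% of its 50-base windows with a gene elsewhere. Mx1, Gbp2, Gbp7 and Iigp1 shared between 2.0% and 3.2%, and Oasl1 shared 0%. Over all alternatives the median of KO over WT ran from −0.10 to −0.08 in mTEC and from −0.13 to −0.10 in cTEC. With all 45 genes, 37 to 39 lay below 0 in mTEC and 40 to 43 in cTEC. The sign depended on the scaling for Ifih1 and Isg15 between genotypes in mTEC, for Ifih1, Ifngr1 and Irf1 in cTEC, and for Mx1, Stat2 and (in WT) Trim30a between populations. No paired analysis was possible because each group holds 1 library, and for the same reason no library could be left out. Depth was not the limit for the 45 genes, with at least 313 reads each per library, but it was for the interferon ligands.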
